A study of Mus musculus with 2 samples.

Results

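Smad proteins carry signals of the TGF-β and BMP family from the cell membrane to the nucleus, and the Id genes are among their best known targets in endothelium. The set described here holds 10 genes, Smad1, Smad2, Smad3, Smad4, Smad5, Smad6, Smad7, Id1, Id2 and Id3. Its members are the 22 probe sets that the platform annotation gives to exactly 1 of these genes, of 34945 probe sets with 1 gene and 45101 on the array. No probe set joined a member with another gene (0 for each of the 10). The rule for a member uses gene names and no measured value.

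The samples were 2 pools of GFP-positive cells, each sorted from about 5 to 10 kidneys of CD-1 mouse embryos at E15.5 (Theiler stage 23) and measured on 1 array. All embryos carried the transgene Tg(TIE2GFP)287Sato, in which the promoter of Tie2 (Tek) drives GFP, so that the sort takes any cell in which that promoter is active, and sex was not recorded. Kidneys were dissociated with trypsin before sorting, and the RNA was amplified in 2 rounds. The sample titles name Flk1 (Kdr), and the source label gives the endothelial layer of renal vessels. The protocol instead describes a Tie2 reporter and kidneys taken whole. Nothing in the labels says that the pools came from separate litters, so the spread between them may be partly technical.

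In this pathway a ligand joins type II and type I receptors, and the type I receptor phosphorylates a receptor Smad. BMP receptors act on Smad1 and Smad5, and TGF-β and activin receptors act on Smad2 and Smad3. Either kind then joins Smad4, the common partner, and enters the nucleus. Smad6 and Smad7 are inhibitory Smads whose genes are themselves targets, and they limit the signal. Id proteins have a helix-loop-helix but no DNA-binding region, and they hold E proteins off the DNA. In endothelium the receptor Acvrl1 (ALK1) with Bmpr2 and endoglin is the classical route to Smad1, Smad5, Id1 and Id3, and its loss gives malformed vessels.

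All 10 genes were above background on both arrays, as were 61.2% of the 18193 genes measured. Among their probe sets 18 of 22 (81.8%) were above it, against 55.1% of probe sets with 1 gene. A probe set counted as above background when it passed a limit on both arrays, set at the 95th percentile of 86 probe sets for sensory receptor genes (olfactory, taste and vomeronasal), 198.9 in replicate 1 and 203.9 in replicate 2. By role, 6 of 6 probe sets of Smad1 and Smad5, 4 of 5 of Smad2 and Smad3, 3 of 3 of Smad4, 2 of 3 of the inhibitory Smads and 3 of 5 of the Id genes passed. Intensities are in arbitrary units and depend on each probe set's own sequence, so no gene's level was set against that of another.

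**Figure D1:**
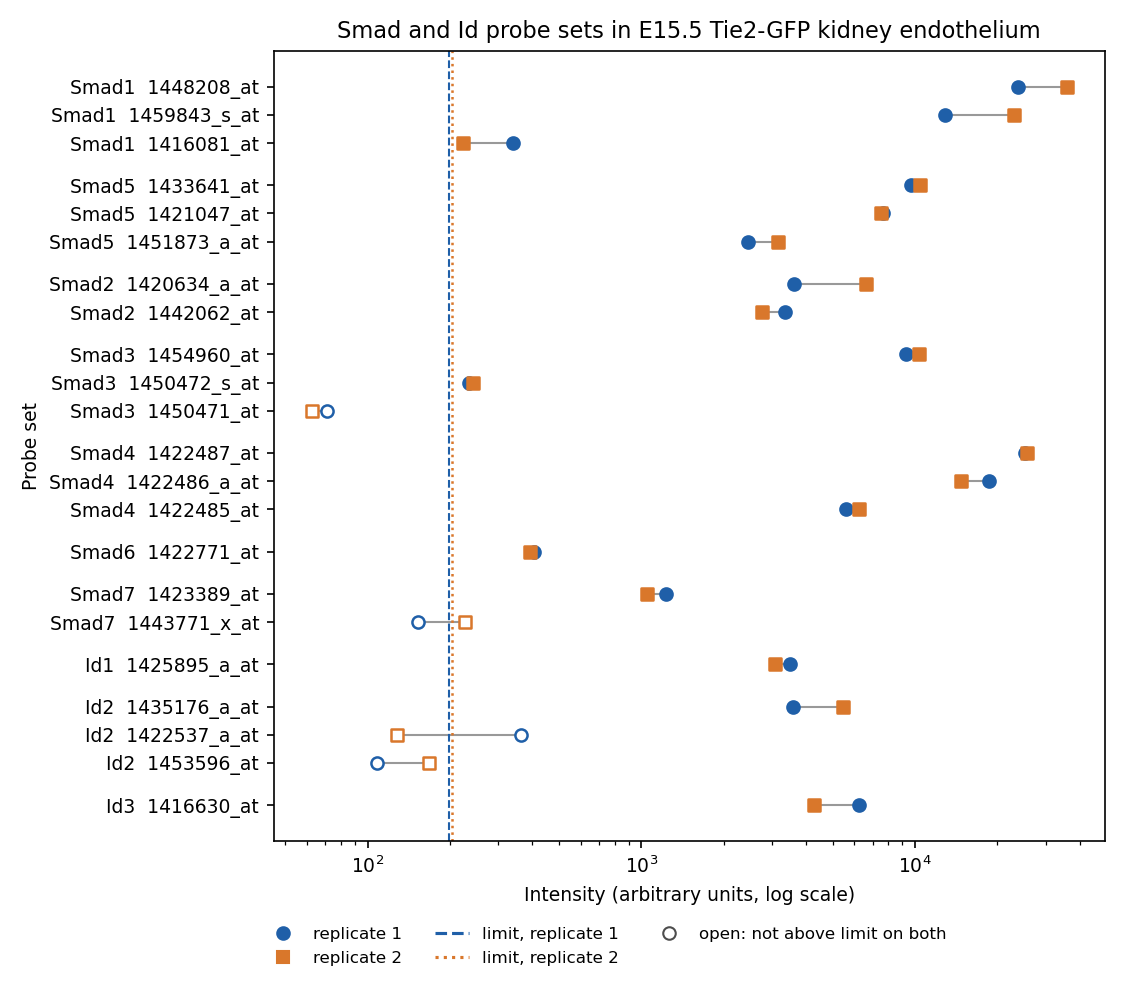
Intensity (x axis, arbitrary units on a log scale) of the 22 Smad and Id probe sets (y axis) in replicate 1 (blue circles) and replicate 2 (orange squares), with the background limits of 198.9 and 203.9 as vertical lines. Filled points mark the 18 probe sets above the limit on both arrays, and the open points belong to Smad3, Smad7 and Id2.

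Smad1 and Smad5, the receptor Smads of BMP signals, were detected by every probe set. For Smad1 probe set 1448208_at gave 23725 in replicate 1 and 35936 in replicate 2, and 1459843_s_at gave 12900 and 23079. Both were higher in replicate 2, by 1.50-fold and 1.77-fold. The remaining Smad1 probe set, 1416081_at, was near the limit at 340.1 and 223.0 and was higher in replicate 1 by 1.54-fold. Smad5 gave 9670 and 10427 with 1433641_at, 7639 and 7485 with 1421047_at, and 2448 and 3167 with 1451873_a_at. The Smad5 pools were nearly level, with differences of 1.07-fold, 1.03-fold and 1.28-fold. Folds between the pools were taken after making the medians over all probe sets above background equal, which removed a log2 offset of -0.01.

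Smad9, the other receptor Smad of BMP signals and no member of the set, was below the limit in both pools with its single probe set (37.1 and 52.8).

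Smad2 and Smad3 transmit signals of TGF-β and activins. Smad2 was well above the limit with both probe sets, which went opposite ways. With 1420634_a_at it gave 3620 and 6629, higher in replicate 2 by 1.81-fold, the largest difference among the 18 probe sets above background. With 1442062_at it gave 3357 and 2754, higher in replicate 1 by 1.23-fold. Smad3 gave 9268 and 10382 with 1454960_at, a difference of 1.11-fold. Its probe set 1450472_s_at lay just above the limit (235.3 and 243.7) and 1450471_at lay below it (70.8 and 62.4), so that the detection of Smad3 rested mainly on 1 of 3 probe sets.

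Smad4, which joins either kind of receptor Smad, was detected by all of its probe sets. It gave 25203 and 25619 with 1422487_at, 18582 and 14758 with 1422486_a_at, and 5618 and 6240 with 1422485_at. The first of these differed by 1.01-fold, the smallest difference of the 18. The other two differed by 1.27-fold toward replicate 1 and 1.10-fold toward replicate 2.

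Both inhibitory Smads were detected, each by 1 probe set. Smad6, which acts mainly on BMP receptors, has a single probe set, which gave 406.7 and 392.1, 2.04 and 1.92 times the limit. The pools differed by 1.05-fold for this gene. Smad7, which acts on TGF-β and BMP receptors, gave 1235 and 1052 with 1423389_at, higher in replicate 1 by 1.19-fold. Its other probe set, 1443771_x_at, was over the limit on the second array alone (153.2 and 226.2). The suffix _x marks probes that may match other transcripts.

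The Id targets were each above background with 1 probe set. Id1 gave 3486 and 3090 with its only probe set, a difference of 1.14-fold. Id3, also with a single probe set, gave 6221 and 4273 and was higher in replicate 1 by 1.47-fold. Id2 gave 3597 and 5465 with 1435176_a_at and was higher in replicate 2 by 1.50-fold. Id1 and Id3 therefore lay on the side of replicate 1 and Id2 on the side of replicate 2.

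Id2 was also the gene whose probe sets disagreed most about detection. Probe set 1422537_a_at was over the limit on the first array alone (362.2 and 127.9). Probe set 1453596_at was over it on neither (108.0 and 167.1). Taking the median of its 3 probe sets on each array turned the direction of Id2, to a log2 difference of 1.13 (replicate 1 minus replicate 2) from -0.59, and put it below the limit in replicate 2.

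Id4, the family's remaining gene and no member of the set, behaved otherwise. Its probe set 1423259_at gave 466.1 and 1787 and its probe set 1450928_at gave 322.1 and 1261, so that it was higher in replicate 2 by 3.80-fold and 3.88-fold. The third, 1423260_at, was below the limit (61.6 and 134.3). No member showed a difference of this size above background. Markers of renal stroma moved the same way as Id4, with 11 of 11 detected genes over 2-fold higher in replicate 2. Their list was drawn up with a stromal difference between the pools already known. The part of stroma in the Id4 difference was not tested.

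Promoter sequences are shown for Smad6, Id2 and Id3, which are among the members that the pathway is known to switch on. RefSeq promoter windows (GRCm38.p6, 250 bases before to 50 after each annotated start) were used for 6 of the 10 members. None was used for Id1, Smad2, Smad4 and Smad7. The windows did not cover the whole genome, so a missing window says nothing about the promoter of that gene. The windows of Smad6, Id2 and Id3 are printed here 5′ to 3′ up to 30 bases past the start. The Smad6 window is chr9:64022030-64022309 on the minus strand, that of Id2 chr12:25096063-25096342 on the minus strand, and that of Id3 chr4:136143572-136143851 on the plus strand. Capitals mark GTCTAGAC, the palindromic element to which Smad3 and Smad4 are known to bind, and GGCGCC, a GC-rich site known from BMP targets.

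Smad6: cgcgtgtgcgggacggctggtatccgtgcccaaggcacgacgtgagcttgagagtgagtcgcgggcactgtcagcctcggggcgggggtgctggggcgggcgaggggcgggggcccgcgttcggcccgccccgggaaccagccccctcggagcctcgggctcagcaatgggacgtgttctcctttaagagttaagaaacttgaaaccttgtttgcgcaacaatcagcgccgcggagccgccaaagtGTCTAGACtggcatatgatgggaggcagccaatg

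Id2: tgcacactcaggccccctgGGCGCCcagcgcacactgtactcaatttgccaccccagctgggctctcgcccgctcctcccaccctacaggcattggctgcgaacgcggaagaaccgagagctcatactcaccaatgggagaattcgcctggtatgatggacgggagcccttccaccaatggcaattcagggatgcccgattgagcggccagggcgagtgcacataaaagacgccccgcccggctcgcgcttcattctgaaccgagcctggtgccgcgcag

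Id3: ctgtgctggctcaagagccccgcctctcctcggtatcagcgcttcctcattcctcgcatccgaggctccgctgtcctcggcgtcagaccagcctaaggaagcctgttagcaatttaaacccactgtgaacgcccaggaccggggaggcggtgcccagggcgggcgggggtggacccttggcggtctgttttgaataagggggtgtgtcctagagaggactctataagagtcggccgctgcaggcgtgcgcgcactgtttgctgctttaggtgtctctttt

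Both motifs read the same on either strand and do not overlap each other here. The Smad6 window held 1 GTCTAGAC, which begins 4 bases before the annotated start, and 0.213% of 32817 windows of the same length held this motif. The Id2 window held 1 GGCGCC, beginning 231 bases before the start, and 2 overlapping windows of Smad5 shared 1 such match. Of the 32817 windows 11.9% held this motif. The Id3 window held neither. The E-box CANNTG is the motif bound by E proteins and their partners. It was found once each in the windows of Smad6 and Id2 and not in that of Id3. Of the 32817 windows 72.3% held it. These matches describe the letters of the windows, and no binding was measured.

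Between the pools, these genes varied about as much as others did. Of the 18 probe sets above background, 8 were higher in replicate 1 and 10 in replicate 2, with a median log2 difference (replicate 1 minus replicate 2) of -0.02 and an SD of 0.43. Over all 22354 probe sets above background that SD was 0.51. None of the 18 differed by over 2-fold (0 in either direction), where 2.07% of probe sets with 1 gene above background were over 2-fold higher in replicate 1 and 2.87% in replicate 2. Of the 18, 9 differed by under 1.2-fold, as did 44.3% of probe sets with 1 gene above background. With 2 arrays of 1 group there is no test of any of these differences.

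Since the spread between arrays depended on the level, each difference was also set beside probe sets of similar intensity. All probe sets above background were divided into 10 classes of mean level, and the 95th percentile of the size of the difference ran from 1.63-fold in the brightest class to 2.25-fold at the fourth. Probe set 1459843_s_at of Smad1 was beyond the percentile of its class (1.77-fold against 1.63-fold), and 1448208_at of the same gene was not (1.50-fold against 1.63-fold). The same held for the rest of the 18, among them 1420634_a_at of Smad2 (1.81-fold against 1.92-fold). By construction, about 1 in 20 probe sets of a class lies beyond it, so that 1 of 18 is near the background.

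**Figure D2:**
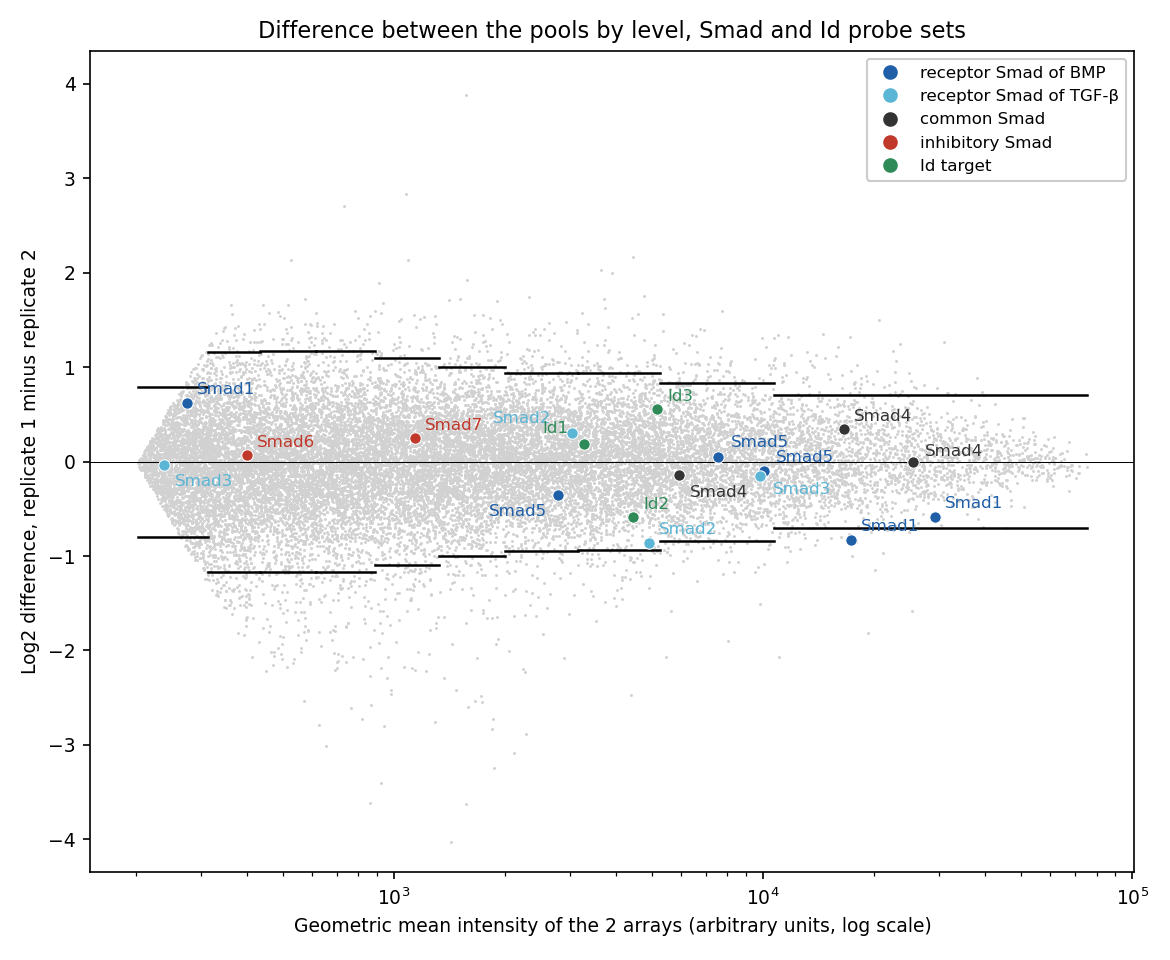
Log2 difference in intensity, replicate 1 minus replicate 2 (y axis), against the geometric mean intensity of both arrays (x axis, log scale) for all 22354 probe sets above background (grey) and the 18 Smad and Id probe sets (coloured by role, labelled). Black lines mark the 95th percentile of the size of the difference in 10 classes of level, which 1 of the Smad1 points passes, and the wedge at the left comes from the limit, which a low probe set must pass on both arrays.

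Probe sets of the same gene gave a further measure of error. Of the 5 members with several probe sets above background, Smad1, Smad2, Smad4 and Smad5 had probe sets on both sides of equality, and Smad3 did not. That is 4 of 5, against 52.1% of the 4940 genes of this kind. The distance between the highest and lowest log2 difference was 1.45 for Smad1, 1.16 for Smad2, 0.48 for Smad4, 0.40 for Smad5 and 0.11 for Smad3. Its median over all such genes was 0.50 and its 95th percentile 1.39, so that the Smad1 probe sets disagreed more than those of most genes. The number of probe sets per gene was not matched in this comparison. For Smad1 and Smad2 the direction of the difference was therefore not shared by all of their probe sets. For Smad1 the one apart was 1416081_at, near the limit (340.1 and 223.0), and the brighter 1448208_at and 1459843_s_at were both higher in replicate 2.

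Other genes of the pathway, from ligands to the partners of Id proteins, were counted from 13 lists with 88 measured genes, of which 65 (73.9%) were above background, against 61.2% of all genes. The same 61.2% stands beside each count that follows, and with lists this short a share apart from it shows nothing particular to a list. Each gene stands by its brightest probe set, as for the members. Among BMP ligands 4 of 7 passed, with Bmp2 at 1383 and 1601, Bmp4 at 717.0 and 677.6, and Bmp5 at 352.4 and 1316. Bmp5 was higher in replicate 2 by 3.70-fold, beyond the 95th percentile of its class of level. The circulating ligands of Acvrl1 were below the limit, Gdf2 (BMP9) at 62.9 and 56.3 and Bmp10 at 47.4 and 44.8, as was Bmp6 at 118.7 and 129.3. Gdf2 and Bmp10 are known as products of liver and heart that reach endothelium through the blood.

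Of the TGF-β and activin ligands 6 of 8 passed, with 1 over 2-fold higher in replicate 1 and 1 in replicate 2. Tgfb1 gave 1265 and 540.4, higher in replicate 1 by 2.36-fold, and Tgfb3 gave 240.2 and 1098, higher in replicate 2 by 4.53-fold. Both lay beyond the 95th percentile of their class of level. Tgfb2 gave 433.0 and 666.9, and Inha, the inhibin alpha subunit, gave 427.7 and 418.4. Gdf11 was below the limit (191.4 and 149.1), and the activin subunit gene Inhba was over the limit on the second array alone (28.5 and 278.0).

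The receptors that act on Smad1 and Smad5 were represented by 3 of 4 genes. Acvrl1, the type I receptor of endothelium, gave 1948 and 1574, and Acvr1 gave 7517 and 11154. Bmpr1a gave 670.1 and 1848, higher in replicate 2 by 2.73-fold, and Bmpr1b was below the limit on both arrays (73.5 and 191.3). Of the type I receptors for Smad2 and Smad3, Tgfbr1 gave 8448 and 12132, Acvr1b gave 1843 and 1708, and Acvr1c was below the limit (147.6 and 147.4).

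Type II receptors were above the limit for 4 of 5 genes. Bmpr2, the main BMP type II receptor of endothelium, gave 22399 and 26736, and Tgfbr2 gave 33826 and 25546. The activin receptor Acvr2a gave 964.5 and 1033. Its relative Acvr2b gave 2003 and 1020, which at 1.98-fold was just under 2-fold, and the gonadal receptor Amhr2 was below the limit (146.2 and 45.2). The coreceptor endoglin (Eng) gave 14009 and 8907, betaglycan (Tgfbr3) gave 10844 and 9460, and the decoy receptor Bambi gave 5385 and 4939, all higher in replicate 1.

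All 21 genes of the list of Smad regulators were above background. They include the ubiquitin ligases Smurf1 (1185 and 927.4) and Smurf2 (8700 and 8052), which mark Smads and receptors for breakdown. Nedd4l, a ligase of activated Smad2 and Smad3, gave 3474 and 3115, and Rnf111 (Arkadia), which removes the inhibitors of the pathway, gave 5447 and 8288. The median difference of this list was 0.09 on the log2 scale (replicate 1 minus replicate 2), and 12 genes were higher in replicate 1 and 9 in replicate 2. Of the nuclear partners 6 of 7 passed, with the acetyltransferases Crebbp at 10530 and 12103 and Ep300 at 1685 and 1756. The zinc finger factor Zfp423, a partner of Smad1, gave 737.6 and 824.7, while Foxh1, a partner of Smad2 in the early embryo, was below the limit (136.9 and 31.2).

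**Figure D3:**
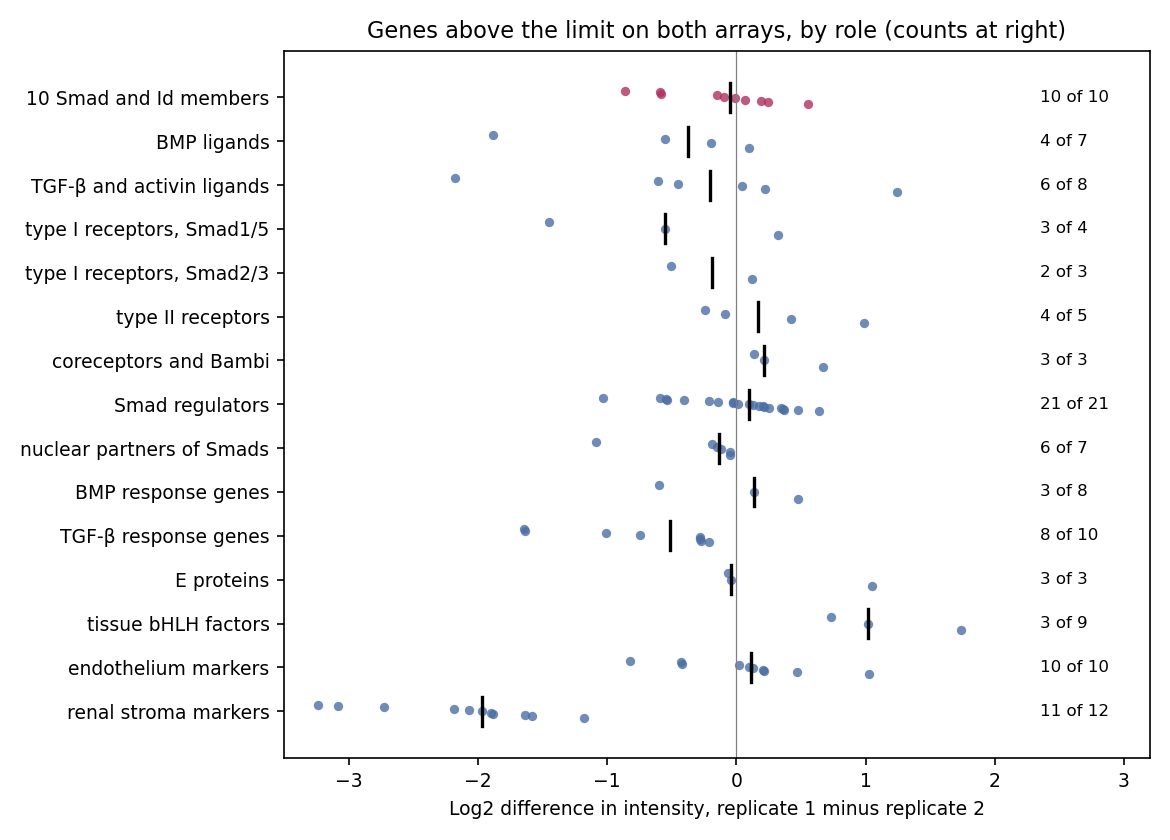
Log2 difference in intensity, replicate 1 minus replicate 2 (x axis), of each gene above the limit on both arrays (dots) by role (y axis), with the median of each row as a black mark and the number above the limit of those measured at the right. The 10 Smad and Id genes have a median of -0.05 and spread around 0, while the 11 detected renal stroma markers all lie toward replicate 2 with a median of -1.97. The stroma list was drawn up with a stromal difference between the pools known.

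Response genes other than the Ids were mixed. Of 8 genes known to answer BMP signals in various tissues 3 passed, Hey1 (4943 and 7566), Msx1 (643.0 and 466.1) and Bambi. Atoh8 (27.6 and 20.4) was below the limit and Hey2 was over it on the second array alone (33.95 and 274.95). The Id genes are not in this list.

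Of 10 genes known to answer TGF-β 8 passed, and replicate 2 had the higher value for all 8, the median being -0.51 on the log2 scale (replicate 1 minus replicate 2). Ccn2 gave 772.5 and 2434 (3.12-fold), Col1a1 gave 1192 and 3736 (3.10-fold), Tgfbi gave 8735 and 10736 (1.22-fold), Pmepa1, an inhibitor of the pathway, gave 1576 and 1937 (1.22-fold), and Skil, which is also in the list of regulators, gave 8046 and 9402 (1.16-fold). Ltbp2 (185.1 and 139.1) and Cdkn2b (27.1 and 70.3) were below the limit. In the same pools 11 of 12 renal stroma markers were above background and all 11 had their higher value there, the median being -1.97 and the summed intensity of 27308 in replicate 1 and 100548 in replicate 2. No stroma marker was at 0, and Col1a1 stands in both lists. The stroma list was drawn up with such a difference known, so its counts are no independent evidence. The part of stromal RNA in the difference of the TGF-β response genes was not tested. More stromal cells and more RNA per stromal cell cannot be told apart in pooled cells.

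Id proteins act on basic helix-loop-helix factors, of which the E proteins and some tissue factors were detected. All 3 E proteins were above background, with Tcf4 at 22206 and 23416, Tcf12 at 19340 and 20116, and Tcf3 (E2A) at 8818 and 4308, the last higher in replicate 1 by 2.07-fold. Of 9 tissue factors that pair with E proteins 3 passed, and all 3 were higher in replicate 1. Tal1, a factor of blood and endothelium, gave 8124 and 4940 (1.66-fold), its relative Lyl1 gave 7442 and 3715 (2.02-fold), and Tcf15 gave 4217 and 1276 (3.34-fold). Tal2 was below the limit (134.4 and 82.8). Hand1, Tcf21 and Twist2 were over the limit on the second array alone, so the count of 3 leaves out factors higher in replicate 2. The Id genes themselves lay on both sides, as described, with differences from 1.14-fold to 1.50-fold. None of these was beyond the 95th percentile of its class of level, and the direction of Id2 depended on the probe sets used.

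The pools carried the markers of their label, and the macrophage markers too. All 10 endothelial markers were above background, with Tek at 15908 and 21499, and their median difference was 0.11 on the log2 scale. Of other cell types, 9 of 9 macrophage, 11 of 12 stroma and 3 of 4 erythroid markers were above background. The counts were 4 of 7 for mural, 3 of 6 for nephron progenitor and 4 of 11 for tubule and ureteric markers. These shares were at or below the 61.2% of all genes, and such counts show neither presence nor absence of those types. Of the mural markers, Pdgfrb (2246 and 4253) and Acta2 (2289 and 3693) were well above the limit, while 3 of 7 did not pass on both arrays. The Smad and Id values are those of the sorted pools as a whole. All 7 immediate early genes were above background, among them Fos (38261 and 45027), Fosb (1004 and 3020), Jun (11640 and 17543) and Junb (400.3 and 405.5).

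**Figure D4:**
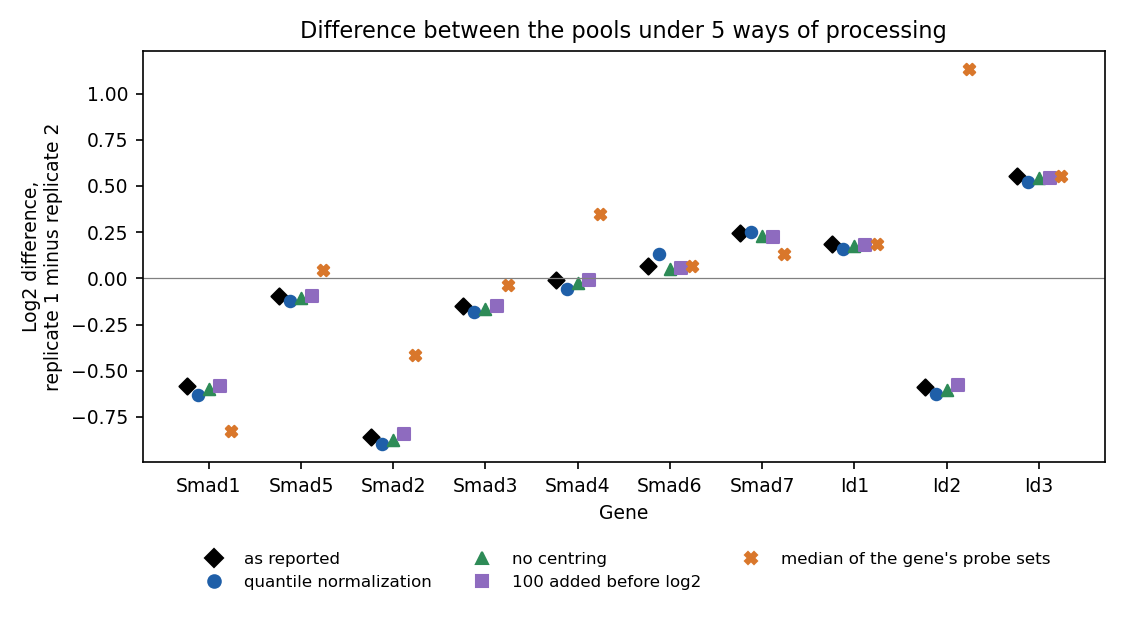
Log2 difference in intensity, replicate 1 minus replicate 2 (y axis), of each Smad and Id gene (x axis) as reported and under 4 other ways of processing (symbols for quantile normalization, no centring, 100 added before log2 and the median of probe sets). Id2 moves from -0.59 to 1.13 when the median of its probe sets is used, Smad4 and Smad5 also change side, and the other genes keep their direction in these 5.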

How the data were processed

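RNA from 2 pools of sorted cells was measured on an Affymetrix mouse expression array. The authors deposited 1 linear intensity per probe set and array, and the submitters' processing notes name GCOS, with no version. After trimming 2% at each end both arrays had a mean of 1500.01, so they had been scaled before deposit. The published methods concern a different array type and 1 round of amplification, and were not applied to these arrays.

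Probe sets were named from the platform annotation where it gives 1 gene (34945, with 932 naming several, 9160 naming none and 64 controls). Identifiers of 34741 were found in a gene table (GRCm38.p6), which altered 0 symbols. A gene stands by its probe set of highest mean log2 intensity. The limit is the 95th percentile of 86 sensory receptor probe sets of 77 genes, on each array. Differences are log2 of replicate 1 minus replicate 2, with medians over probe sets above background made equal. Probe set positions along transcripts were not used here. With 1 group there is no test and no p-value, and the number of arrays limits the precision. Alternatives were other limits (90th and 99th percentiles, 2 times the limit, an intensity of 100), quantile normalization, no centring, 100 added before log2, no suffixed probe sets, other rules for a gene, and each array alone. Python 3.11.15, numpy 2.4.6, pandas 2.3.3 and matplotlib 3.10.9 were used. The arithmetic of centring and of the classes of level was checked on simulated data with separately written code. The limit and the choice of probe set were not part of that check.

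The set of genes and all lists were drawn up with earlier results of these data known, among them a difference between the pools in stromal genes, so the stroma counts are no independent evidence of it. Named genes are all members, the first 4 measured of each pathway list, up to 3 whose detection differed from the majority of their list, the 6 with the largest difference over 2-fold, Tek, Smad9 and Id4. Hand1, Tcf21, Twist2, Pdgfrb and Acta2 are named in addition, to show the limits of the counts of their lists. No gene was named for a pattern like that of a member, since 2 arrays give none.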

Additional observations from a re-analysis of the deposited data

How the results depend on the processing

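The count of 10 member genes above background ranged from 7 to 10 under 10 alternatives. It was 9 at 2 times the limit, where Smad6 was lost, 8 without suffixed probe sets, which removes Id1 and brings Id2 below the limit, 9 with a gene's probe sets replaced by their median, where Id2 was lost, and 7 when every probe set had to pass, where Smad3, Smad7 and Id2 were lost. On either array alone it was 10. The count of 18 probe sets ranged from 15 to 21 in the alternatives that keep all 22, and was 11 of 13 without suffixed probe sets. The number over 2-fold was 0, and 1 (Id2, 1422537_a_at) with a fixed limit of 100 and also with no filter on low values. The median difference lay between -0.10 and 0.07, against an SD of 0.51 over probe sets, and was above 0 only without suffixed probe sets. Pathway and immediate early genes above background together numbered 72 of 95, against 42 when every probe set had to pass and 66 to 81 otherwise. Of 40 recomputed gene differences 39 moved by less than 0.51 on the log2 scale, the exception being Id2. The median of probe sets also turned the small differences of Smad5 (to 0.04) and Smad4 (to 0.35). No difference could be recomputed with 1 array left out, since it needs both. Differences of weak probe sets near the limit, such as those of Smad6, are limited by the filter, which a probe set had to pass on both arrays.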
